A study of Rattus norvegicus with 4 samples.

Results

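The genes described here belong to the interleukin-6 (IL-6) signalling pathway: the cytokines Il6 and Lif, the receptor subunits Il6r, Il6st, Osmr and Lifr, the transcription factor Stat3 and the inhibitors Socs2 and Socs3. They were measured in rat adrenal medulla, the inner part of the adrenal gland. All probe sets (groups of short probes that report on 1 transcript) annotated to exactly 1 of these 9 genes were taken. That gave 13 probe sets for 8 genes, out of 31042 probe sets and 14217 singly named genes on the array. Osmr has no probe set annotated to it alone and is not analysed here. The 4 arrays were hybridised with total RNA, 2 from rats immobilized for 2 hours and 2 from unstressed rats. Strain, sex and age are not in the labels, nor is the number of animals behind an array, so p-values measure only the spread between these arrays, which may be technical.

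IL-6 family cytokines act through receptor complexes that share 1 signal-transducing subunit, gp130, the product of Il6st. IL-6 binds first to its own receptor subunit, the product of Il6r, whereas LIF and oncostatin M bring gp130 together with the products of Lifr or Osmr. Janus kinases bound to the receptors then phosphorylate Stat3, which enters the nucleus, and Socs3 is 1 of its best known targets and feeds back on gp130 and the kinases. In the adrenal gland IL-6 is made by cells of the cortex and the medulla, and chromaffin cells, which release adrenaline and noradrenaline, carry receptors for it.

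After immobilization, transcripts of Stat3 and Socs3 were 2.45 to 2.70 times their unstressed level, while the receptor subunit Il6r and 3 of the 4 probe sets of Il6st did not pass the test. Of the 13 probe sets, 9 were bright enough to be tested with limma, and at a Benjamini-Hochberg adjusted p under 0.05 over all tested probe sets 3 of them rose (both of Stat3 and the 1 of Socs3) and 1 fell (1 of 4 of Il6st). Across all 18625 tested probe sets 31.1% were called, 11.7% as rises and 19.4% as falls. With each array centred on its median the split over all probe sets was 2844 rises and 2497 falls, against 2180 and 3619 as deposited. The groups did not overlap at 7 of the 9 tested members, against 67.8% of all tested probe sets. The median log2 change was -0.13 over the 9 members and -0.12 over all tested probe sets. The members did not move as a group: the 3 rises lay between 1.29 and 1.43 and the other 6 log2 changes between -0.48 and -0.13. Il6 and both probe sets of Lifr read higher on the immobilized arrays, but their means over the 4 arrays lay under the level set for testing.

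**Figure D1:**
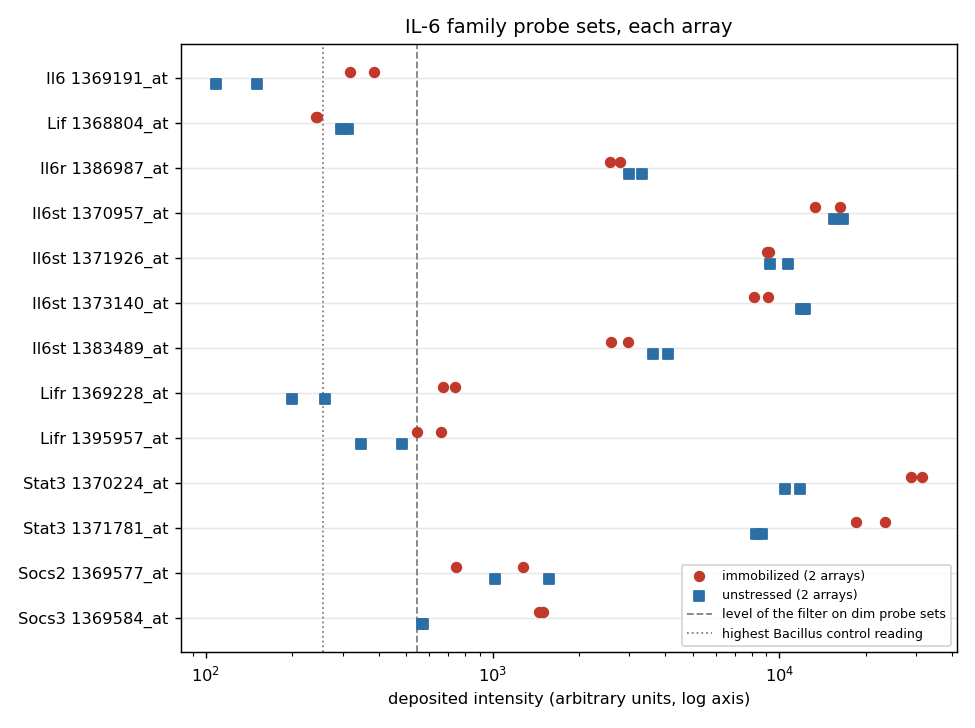
Deposited intensity (arbitrary units, log axis) of the 13 probe sets on each array, 2 immobilized arrays (red circles) above 2 unstressed arrays (blue squares). The dashed line is the filter level of 543.8 and the dotted line the highest Bacillus control reading, 256.6. Stat3 and Socs3 show a wide gap between the groups, and Il6, Lif and part of the Lifr readings lie near the controls.

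Intensities are linear and in arbitrary units, so levels of different genes are not set against each other. The deposited arrays shared 1 trimmed mean, and their median intensities were 864 and 827 on the immobilized arrays and 955 and 911 on the unstressed arrays. The 27 control probe sets for Bacillus transcripts, which report background, read 2.18 to 257. The ratio of the 3' to the 5' probe set of the beta-actin control, a sign of RNA degradation when high, was 1.99 and 1.62 on the immobilized arrays and 2.15 and 1.90 on the unstressed arrays. Log2 changes are immobilized minus unstressed on log2(intensity + 16), and their precision is limited by having 2 arrays per group.

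The cytokine genes were dim. Il6 had intensities of 318 and 385 on the immobilized arrays, against 109 and 151 on the unstressed arrays. The groups did not overlap, and both unstressed readings fell inside the span of the Bacillus controls, where signal and background are not separated. The log2 change was 1.34, which is not an exact size, since its unstressed side is background level. Il6 was under the filter level of 543.8 and was not tested. With no filter, over 31042 probe sets of which 6.69% were called as rises, its adjusted p in limma was 0.0612. The change varied between 1.10 and 1.55 over the 12 alternative settings. Lif, the cytokine that signals through the Lifr product, read 245 and 242 on the immobilized arrays and 296 and 314 on the unstressed arrays. Its immobilized readings lay within the control range and the unstressed ones just above it, and the log2 change of -0.31 had an adjusted p of 0.603 in limma with no filter.

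The start of Il6 is shown because its promoter is the 1 among the members that held more than 1 of the motifs searched. These are the 250 bases before the annotated start, in RefSeq's GRCr8 table at chr4:5894576-5894825 on the minus strand, 5′ to 3′. Capitals mark a cyclic AMP response element, TGACGTCA, beginning 162 bases before the start, and a match to the kB consensus bound by NF-kB factors, GGGATTTTCC, beginning 68 bases before it.

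Il6: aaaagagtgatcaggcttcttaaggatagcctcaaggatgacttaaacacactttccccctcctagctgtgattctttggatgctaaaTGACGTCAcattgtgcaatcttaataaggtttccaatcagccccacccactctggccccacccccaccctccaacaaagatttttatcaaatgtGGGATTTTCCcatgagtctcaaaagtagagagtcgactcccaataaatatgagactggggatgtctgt

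On either strand, TGACGTCA occurs in 1.59% and the kB consensus in 6.33% of the 33465 promoter windows of the same length. The AP-1 motif TGANTCA (6.34% of windows) and the STAT motif TTCNNNGAA (7.67%) were not found in the Il6 window. A match in these letters is not evidence of binding in this tissue. Promoters were found for 7 of the 9 genes, and those of Il6r, Il6st, Lifr and Stat3 held none of the 4 motifs.

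Among the receptors, Il6st was bright and its 4 probe sets had log2 changes below 0, except that 2 of them stood at 0.0085 and 0.0081 with median centring and 1 of these, 1370957_at, at 0.012 without immobilized 2, and 1 of the 4 was called. Probe set 1373140_at had intensities of 9121 and 8179 on the immobilized arrays and 11911 and 12272 on the unstressed arrays. Both immobilized arrays lay below both unstressed ones, and it fell by 0.48 on the log2 scale, with an SE of 0.12, a 95% interval of -0.77 to -0.19 and an adjusted p of 0.0248 in limma. That amounts to 1.40-fold lower. Probe set 1383489_at was at 2963 and 2585 on the immobilized arrays and 3629 and 4094 on the unstressed arrays, with a log2 change of -0.48 ± 0.16 and an adjusted p of 0.0588 in limma. Its groups did not overlap either, yet it did not pass. The other probe sets, 1370957_at and 1371926_at, each had a log2 change of -0.13. Their 95% intervals ran from -0.47 to 0.20 and from -0.43 to 0.17, so their lower ends stopped just short of the change of the called probe set. The call on 1373140_at was lost with either immobilized array left out (adjusted p = 0.0782 without immobilized 1 and 0.155 without immobilized 2), with median centring (0.0931) and without the intensity trend in the variance model (0.0645).

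Il6r, the subunit that binds IL-6 itself, read 2776 and 2559 on the immobilized arrays, against 2983 and 3329 on the unstressed arrays. The groups did not overlap, but the gap between them was 0.10 on the log2 scale, smaller than the differences of 0.12 and 0.16 within them. The log2 change was -0.24 with a 95% interval of -0.61 to 0.13 (adjusted p = 0.281 in limma).

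Lifr, the subunit that LIF binds, had 1 probe set with a large difference and another with a small one. Probe set 1369228_at read 737 and 669 on the immobilized arrays and 200 and 261 on the unstressed arrays. The lowest immobilized reading was above the highest unstressed one by 1.31 on the log2 scale, and 1 unstressed reading lay within the range of the Bacillus controls. Its log2 change was 1.56, not an exact size with the unstressed readings at or near the controls, and with no filter its adjusted p in limma was 0.0221. Probe set 1395957_at read 660 and 545 on the immobilized arrays and 348 and 483 on the unstressed arrays. Here the change was 0.53, the adjusted p with no filter was 0.311, and the gap of 0.17 between the groups was smaller than the gaps within them. Both probe sets had a mean under the filter level and were not tested beside the others. Lifr lies next to Osmr on chromosome 2, with only the pseudogene Rpl21-ps11 annotated between them in GRCr8.

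Stat3, the transcription factor of the pathway, had the largest change among the tested members, and its probe sets agreed. Probe set 1370224_at had intensities of 31460 and 28690 on the immobilized arrays and 11827 and 10452 on the unstressed arrays. The rise in log2 units was 1.43 ± 0.13 (SE, n = 2 arrays in each group), or 2.70-fold, with a 95% interval of 1.12 to 1.75 and an adjusted p of 0.000731 in limma. The gap between the groups, 1.28 on the log2 scale, was several times the differences of 0.13 and 0.18 within them. Probe set 1371781_at read 23380 and 18567 on the immobilized arrays and 8678 and 8310 on the unstressed arrays, a rise of 1.29 ± 0.15, or 2.45-fold (adjusted p = 0.00149 in limma). The immobilized arrays differed more here, by 0.33 on the log2 scale. Both rises passed the test under each of the 12 alternative settings, with changes from 1.33 to 1.57 for the brighter and from 1.13 to 1.46 for the dimmer probe set. Among the log2 changes of all tested probe sets they stood at percentiles 96.5 and 95.8, and that of Socs3 at 96.1.

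The inhibitors differed from each other. Socs3, which binds gp130 and the Janus kinases and stops signalling, read 1498 and 1452 on the immobilized arrays and 569 and 573 on the unstressed arrays. All 4 readings were above the filter level. The replicates nearly coincided, differing by 0.04 within the immobilized and 0.01 within the unstressed group on the log2 scale, against a gap of 1.32 between the groups. Its rise was 1.35 ± 0.21 (SE, n = 2 arrays in each group), or 2.54-fold, with a 95% interval of 0.85 to 1.84 and an adjusted p of 0.00449 in limma. The SE exceeds what these 4 readings alone would give because limma draws each variance towards that of probe sets of like intensity. The call was lost without immobilized 1 (1.32, adjusted p = 0.0553) and without immobilized 2 (1.37, adjusted p = 0.0573), although the change itself moved little. Socs2, best known as an inhibitor of growth hormone signalling, read 743 and 1272 on the immobilized arrays and 1022 and 1574 on the unstressed arrays. Its groups overlapped and its replicates differed by 0.76 and 0.61 on the log2 scale. The log2 change was -0.38 with a 95% interval of -1.17 to 0.41 (adjusted p = 0.427 in limma), so a moderate change in either direction was not detectable.

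The promoters of the members that rose, Stat3 and Socs3, are shown for comparison, each as the 250 bases before the annotated start in GRCr8, 5′ to 3′, from chr10:86363360-86363609 and chr10:103694769-103695018, both on the minus strand of chromosome 10. Capitals mark the only match to a motif searched, in Socs3.

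Stat3: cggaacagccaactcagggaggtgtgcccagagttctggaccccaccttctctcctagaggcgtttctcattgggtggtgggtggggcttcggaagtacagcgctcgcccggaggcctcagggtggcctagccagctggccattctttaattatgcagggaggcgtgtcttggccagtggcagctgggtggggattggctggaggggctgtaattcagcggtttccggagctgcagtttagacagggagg

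Socs3: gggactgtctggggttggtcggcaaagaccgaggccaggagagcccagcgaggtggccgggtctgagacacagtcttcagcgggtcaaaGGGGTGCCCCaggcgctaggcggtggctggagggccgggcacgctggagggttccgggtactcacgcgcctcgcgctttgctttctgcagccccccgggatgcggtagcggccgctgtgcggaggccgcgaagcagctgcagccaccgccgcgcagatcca

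The match in Socs3, GGGGTGCCCC, fits the kB consensus and begins 161 bases before the start. Neither window held TTCNNNGAA or TGACGTCA, and this says only that those letters are not in these 250 bases.

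**Figure D2:**
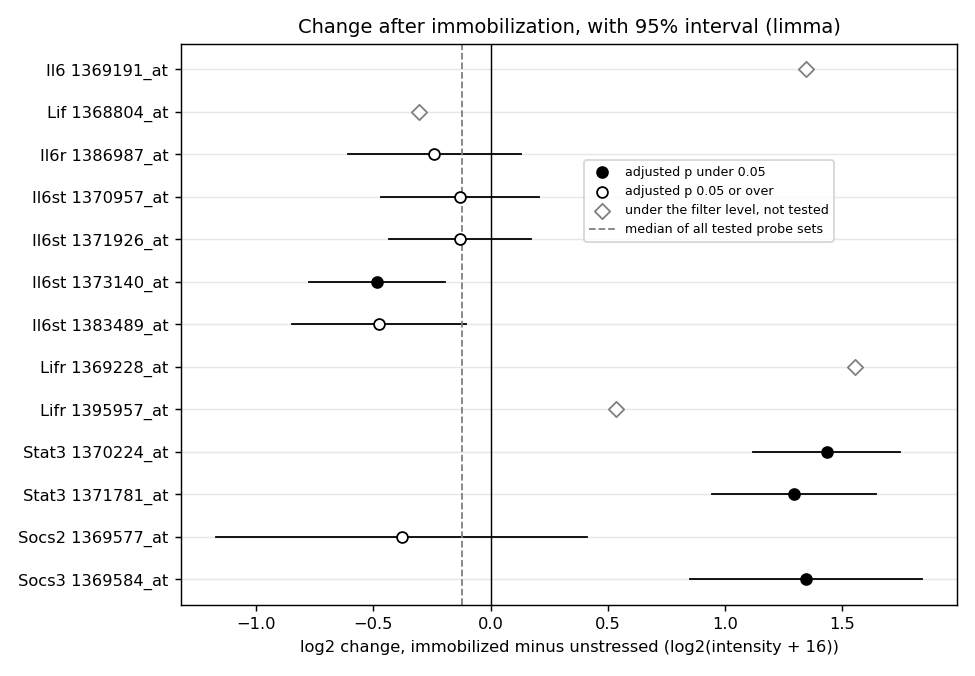
Log2 change of each probe set, immobilized minus unstressed, with the 95% interval of the limma fit for the 9 tested probe sets (2 arrays per group). Filled circles had an adjusted p under 0.05, open circles did not, and diamonds had a mean under the filter level. The rises of Stat3 and Socs3 lie between 1.29 and 1.43, and the Il6r, Il6st and Socs2 values lie between -0.48 and -0.13.

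The tested probe sets whose values followed Stat3 (probe set 1370224_at) most closely were those of Tmem41b, Plpp3, Gal, Pde4b and Cpeb4. Likeness was the Euclidean distance between log2 values over the 4 arrays after subtracting each probe set's mean, and it was 0.06 for Tmem41b and 0.10 for Cpeb4. Gal encodes the neuropeptide galanin, and it read 2719 and 2388 on the immobilized arrays and 937 and 891 on the unstressed arrays. Pde4b encodes a cyclic AMP phosphodiesterase, and it read 1138 and 1053 on the immobilized arrays and 455 and 368 on the unstressed arrays. Both unstressed readings lay under the filter level of 543.8, so this probe set was tested because of its immobilized readings. Over 4 arrays in 2 groups such closeness says little more than that the changes are of like size, 1.38 to 1.46 here. The likeness is that of single probe sets: the 3 tested probe sets of Plpp3 had log2 changes from 0.60 to 1.49 and the 2 of Cpeb4 from 1.39 to 2.19.

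With earlier results of these data known, 5 lists of other genes of the pathway were chosen. The shares over all genes set beside them are therefore no test. The lists held 90 genes, of which 63 were tested, each by its brightest probe set. Of these, 23 rose and 8 fell, against 11.2% rises and 21.8% falls among all 10320 tested genes. For 4 of the 63 (Gfap, Atf3, Fos and Il1b) the mean on the unstressed arrays lay under the filter level, so they were tested because of their immobilized readings, and without them 20 of 59 rose and 8 fell. The median log2 change was 0.44 for the listed genes and -0.14 for all tested genes. Without immobilized 2 the counts were 15 rises and 3 falls, and without immobilized 1 they were 16 and 3.

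The genes known to be induced through Stat3, a list chosen with earlier results of these data known, held most of the rises. Of 23 tested, 16 rose and 0 fell in limma, with a median log2 change of 1.15. Of these, Atf3 and Gfap passed the filter through the immobilized arrays, and 14 of the other 21 rose. At an unadjusted p under 0.05 the counts were 19 and 1, against 15.1% rises and 29.7% falls among all 10320 tested genes. Gadd45g, a growth arrest gene, rose by 3.11 ± 0.34, with 25327 and 25804 on the immobilized arrays and 1947 and 4482 on the unstressed arrays. Il4r, the IL-4 receptor subunit, rose by 2.78 ± 0.18, with 12556 and 16945 on the immobilized arrays and 2257 and 1970 on the unstressed arrays. The groups were far apart for both. Bcl6, a transcriptional repressor, rose by 2.07 and Cebpd, a factor of the acute phase response, by 2.14. Another probe set of Cebpd had 1.30. The largest rises of the list, Atf3 at 5.24 (from unstressed readings of 178 and 102, inside the control span) and Junb at 3.25, are also known as immediate early genes that many other signals induce. Among members that did not pass, Lcn2 had a change of 0.44 and the acute phase gene Hp one of 0.70. Both passed in limma with quantile normalization (adjusted p = 0.0404 for Lcn2 and 0.0447 for Hp) and with median centring (0.0499 and 0.0418). Without unstressed 2 Hp was at 1.03. Ccnd1 had a change of -0.48 (-0.49 to -0.45 over its 3 tested probe sets), and -0.65 without unstressed 2. It was the 1 fall at an unadjusted p under 0.05. A2m was at -0.09, Cebpb at 0.19, Hif1a at 0.35 and Vip at 0.60, none of them called. The fibrinogen genes Fga (-1.10), Fgb (0.85) and Fgg (-0.51) lay under the filter level. Without immobilized 1 the list had 12 rises, and without immobilized 2 it had 11.

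Negative regulators other than the members were split, with 3 rises and 4 falls among 14 tested and a median of -0.06. Among all tested genes 11.2% rose and 21.8% fell, with a median of -0.14. Cish, an SH2 inhibitor of the same family as Socs3, rose by 2.79 ± 0.16, with 11711 and 12897 on the immobilized arrays and 1564 and 1986 on the unstressed arrays. Ptpn2 and Ptpn1, phosphatases that act on Janus kinases and STATs, rose by 1.06 and 1.05, and 1 dimmer probe set of Ptpn1 had 0.30. Pias3, an inhibitor of Stat3, fell by 1.83 on the log2 scale, with 1368 and 1167 on the immobilized arrays and 4819 and 4281 on the unstressed arrays. Adam17, the protease that sheds the IL-6 receptor, fell by 0.75, Pias4 by 0.62 and Socs7 by 0.49. Another probe set of Pias4 had -0.27 and another of Socs7 had -0.32. With immobilized 1 left out, and likewise with immobilized 2 left out, 2 rises (Cish and Ptpn2) and 1 fall (Pias3) passed. The adjusted p in limma was then 0.0517 and 0.0661 for Ptpn1, 0.123 and 0.127 for Adam17, 0.128 and 0.21 for Pias4, and 0.251 and 0.135 for Socs7. Pias4 and Socs7 also missed the threshold without unstressed 2 (0.101 and 0.0774), with median centring (0.0983 and 0.16) and with quantile normalization (0.0951 and 0.101). Socs1, at 262 and 192 on the immobilized arrays and 155 and 79.1 on the unstressed arrays, lay under the filter level.

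Of 13 tested Janus kinases, other STATs and signalling partners, 1 rose and 3 fell, with a median of -0.21. The shares over all tested genes were 11.2% rises and 21.8% falls, with a median of -0.14. Tyk2, a Janus kinase, fell by 1.90 on the log2 scale, with 762 and 595 on the immobilized arrays and 2490 and 2639 on the unstressed arrays. Gab1, a docking protein, fell by 1.22. Grb2, an adaptor, fell by 0.50, and another probe set of it had 0.39. Sos1, the Ras activator that Grb2 binds, rose by 0.48, and another probe set of it had 1.49. With either immobilized array left out the list had 0 rises and 2 falls in limma. Grb2 then had an adjusted p of 0.097 and 0.119, and Sos1 of 0.184 each time. Grb2 also missed the threshold with median centring (0.0733) and Sos1 without unstressed 1 (0.0938), and without unstressed 2 there were 2 rises. With all arrays kept, Jak1 and Jak2, the kinases most often tied to gp130, did not pass, at 0.01 and 0.45. Another probe set of Jak1 had 0.31. Jak2 was at 0.68 without unstressed 2 and was among the 2 rises there.

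None of the other gp130 cytokines and receptors passed in limma, 0 of 5 tested, with a median of -0.07, and at an unadjusted p under 0.05 there was 1, Cntfr at -0.52. The shares over all tested genes were 11.2% rises and 21.8% falls, and 15.1% and 29.7% at that unadjusted level. With 5 genes a count of 0 says little beside those shares. Clcf1, a cytokine of the family, read 589 and 1334 on the immobilized arrays and 629 and 532 on the unstressed arrays, so its change of 0.60 rested on 1 array and was 0.03 without immobilized 2. Of 10 tested inducers of Il6 and Lif and their receptors, 4 rose and 1 fell, with a median of 0.57. Over all tested genes 11.2% rose and 21.8% fell. Fos, whose unstressed mean lay under the filter level, rose by 4.97, Nfkb1, an NF-kB subunit, by 1.62, Il1r1, the IL-1 receptor, by 1.16 and Tnfrsf1a, a TNF receptor, by 0.73. Creb1, the cyclic AMP response factor, fell by 0.59, but another probe set had 0.01. Without immobilized 1 the list had 3 rises and 0 falls and without immobilized 2 it had 2 and 0, since Tnfrsf1a (adjusted p = 0.0647 and 0.0805) and Creb1 (0.227 and 0.0954) were lost in both and Il1r1 (0.0681) without immobilized 2. Creb1 was also lost without unstressed 1 (0.067), with median centring (0.096) and with quantile normalization (0.0531). The cytokine genes Il1a and Tnf lay under the filter level, and Il1b, with its unstressed mean also under that level, did not pass at 0.65 (adjusted p = 0.0687 in limma). It passed with quantile normalization (0.76, adjusted p = 0.0467) and with median centring (0.79, adjusted p = 0.0393).

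**Figure D3:**
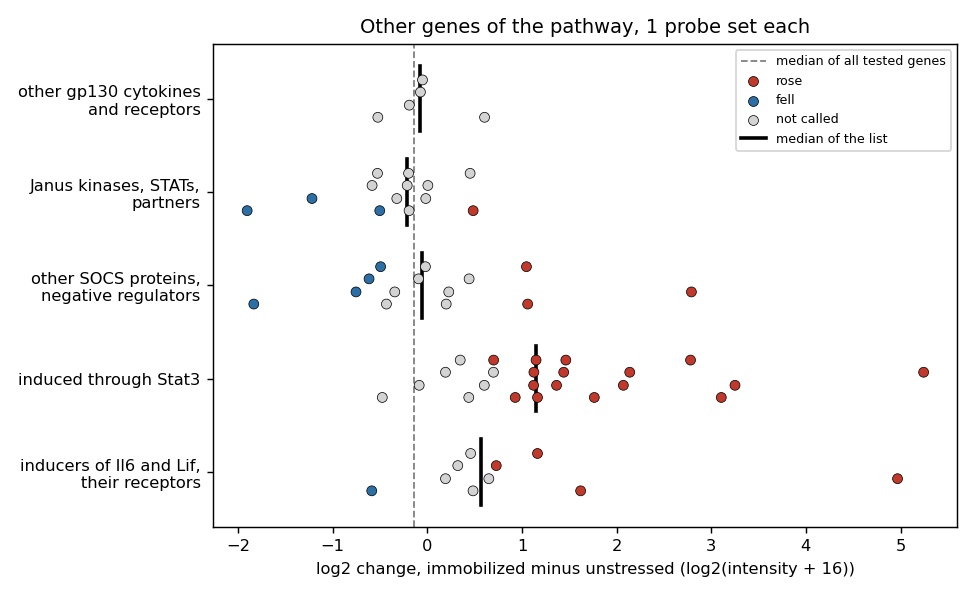
Log2 change of the tested genes of the 5 lists, immobilized minus unstressed, 1 point per gene (its brightest probe set). Red points rose, blue points fell and grey points were not called, thick bars are list medians, and the dashed line is the median of all tested genes, -0.14. The genes known to be induced through Stat3 lie mostly to the right, with a median of 1.15. The lists were chosen with earlier results of these data known.

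Fewer cells of a type and less RNA per cell cannot be told apart in these bulk samples, so the markers of the cell types that could carry these transcripts are given beside the results. The 9 chromaffin markers were bright on all arrays and 0 of 9 passed in limma, also at an unadjusted p under 0.05. With quantile normalization Pnmt passed (0.41, adjusted p = 0.00613 in limma), against 0.36 as deposited. Among all 10320 tested genes 11.2% rose and 21.8% fell, and 15.1% and 29.7% did so at an unadjusted p under 0.05. Adrenal cortex enzymes were bright too, Cyp11b1 at 18432 and 18635 on the immobilized arrays and 23128 and 35901 on the unstressed arrays, so the tissue labelled medulla held cortex RNA. Cyp11b1 (-0.64), Cyp11a1 (-0.35), Cyp21a1 (-0.27) and Hsd3b1 (-0.24) had log2 changes below 0 and were not called, and Star was at 0.07. With quantile normalization Cyp11b1 (-0.76, adjusted p = 0.0123 in limma) and Cyp11a1 (-0.25, adjusted p = 0.025) passed as falls. Of these 6 cortex genes 1 rose, Nr5a1 by 0.47, and 2 had an unadjusted p under 0.05. That call was lost with either immobilized array left out (adjusted p = 0.133 and 0.168 in limma), without unstressed 1 (0.189) and with quantile normalization (0.0657). The 9 macrophage markers summed to 54387 and 49821 on the immobilized arrays and 42471 and 49367 on the unstressed arrays. In limma 0 of 9 passed, with 2 at an unadjusted p under 0.05. C1qb passed with median centring (0.56, adjusted p = 0.0234 in limma). Without unstressed 2 Cd14 was at 0.63, Mrc1 at 0.53 and C1qb at 0.46, and without unstressed 1 they were at 0.02, 0.21 and 0.38. Cd68, Csf1r and Aif1 were at -0.14, -0.21 and -0.007 without unstressed 2.

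Among the neutrophil markers S100a8 and S100a9 moved with the groups. Csf3r and Cxcr2 had log2 changes of -0.21 and 0.14, with overlapping groups. The 4 on the array summed to 1630 and 1722 on the immobilized arrays, against 578 and 699 on the unstressed arrays. The mean of each over the 4 arrays was under the filter level. S100a9 read 905 and 839 on the immobilized arrays and 122 and 180 on the unstressed arrays, and S100a8 read 375 and 341 on the immobilized arrays and 14.8 and 82.5 on the unstressed arrays. Monocytes also make both. Csf3r and Cxcr2, the receptors that define neutrophils, lay between 131 and 334 in both groups. The part of such cells in the Il6, Lifr and Socs3 readings was not tested. Gfap, a glial marker that is itself among the genes known to be induced through Stat3, rose by 1.76 ± 0.22, with 2083 and 1674 on the immobilized arrays and 551 and 526 on the unstressed arrays. S100b, the other tested glial marker that passed, fell by 0.59, and its call was lost with either immobilized array left out (adjusted p = 0.0993 and 0.135 in limma). The 4 glial markers together summed to 7154 and 6264 on the immobilized arrays and 8046 and 6860 on the unstressed arrays. Endothelial sums were 41738 and 45061 on the immobilized arrays and 46267 and 56371 on the unstressed arrays, where Kdr fell by 0.79, a call lost with either immobilized array left out (adjusted p = 0.148 and 0.0768) and with median centring (0.0517). The 6 fibroblast markers had 0 calls in limma, with 0 at an unadjusted p under 0.05, and the single tested lymphocyte marker, Cd3g at 0.62, did not pass, although its unadjusted p was under 0.05. At that unadjusted level there were 2 of 6 endothelial and 2 of 3 glial markers. Of all 10320 tested genes 15.1% rose and 29.7% fell at that level. The endothelial marker Tek passed as a fall with quantile normalization (-0.39, adjusted p = 0.0319 in limma).

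**Figure D4:**
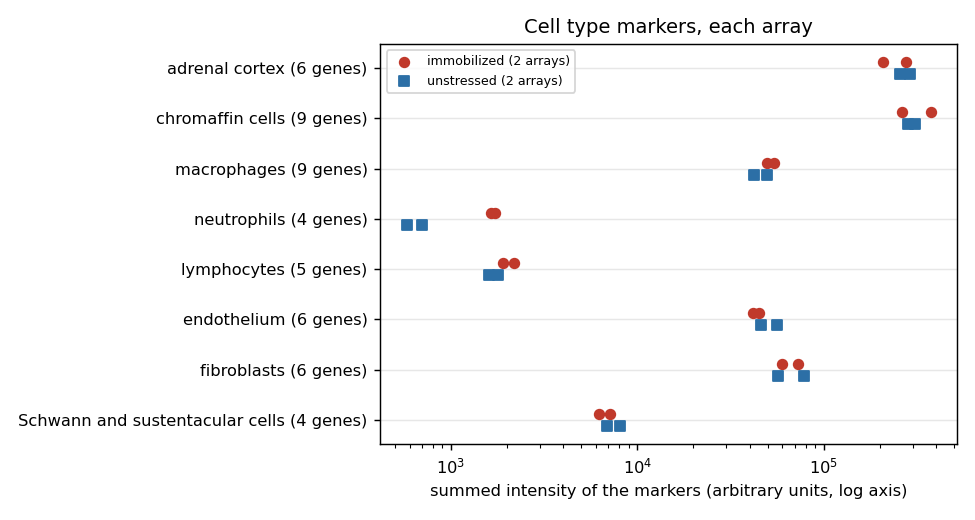
Summed intensity (arbitrary units, log axis) of the markers of 8 cell types on each array, 2 immobilized arrays (red circles) above 2 unstressed arrays (blue squares). The neutrophil sums of 1630 and 1722 on the immobilized arrays stand clear of 578 and 699 on the unstressed arrays, a difference that came from S100a8 and S100a9. The sums of the chromaffin markers overlap.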

How the data were processed

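Per the labels, the 4 samples are total RNA from rat adrenal medulla. The values are linear probe set intensities as the authors deposited them, and how probes were summarised was not stated in those sources. The trimmed means of the arrays (2% at each end) differed by 0.00572%, so the deposited scaling was kept. The 57 control probe sets were left out, and probe sets with a mean log2(intensity + 16) under the 40th percentile were not tested (12417 of 31042). The test was limma's (version 3.58.1, R 4.3.3; lmFit, then eBayes with an intensity trend), two-sided, on all 4 arrays, with Benjamini-Hochberg adjustment over 18625 probe sets. An exact permutation test of 2 against 2 cannot give a p under 0.333 and was not used. The fit was tested on simulated data. Standard errors and 95% intervals come from the moderated variances.

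Genes were named from GEO's platform annotation through Entrez identifiers, with 20826 probe sets naming 1 gene, 436 several and 9780 none. Promoter sequences are RefSeq's, from GRCr8. All members are named. From each list the text names up to 6 called rises and 6 called falls, largest change first, and, where a list has no call, its 2 largest changes, along with the 5 probe sets most like the member with the largest change. Other genes, the choice of the Il6 promoter, and list members given as not passing were picked after their values were seen. The members and lists were chosen with earlier results of these data known. Alternatives were quantile normalization, median centring, offsets of 1 and 64, no filter, a stricter filter (60th percentile), eBayes run robustly or with no trend, each array left out, and averaging the probe sets of a gene. Plots were drawn with matplotlib 3.10.9.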

Additional observations from a re-analysis of the deposited data

How the results depend on the processing

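No paired analysis was possible because the replicate numbers follow accession order and pair no arrays between the groups. Over all tested probe sets, counts with 1 array left out ran from 785 to 2638 rises and from 893 to 3800 falls, the spread then coming from the group that kept 2 arrays and being taken to hold for the lone one. Among the members they ran from 2 to 3 rises and from 0 to 2 falls, and among the other pathway genes from 15 to 26 rises and from 3 to 8 falls. The member count of falls was 0 with median centring and 0 without the intensity trend. The other pathway genes had 4 falls with median centring, 5 without the trend and 5 when the probe sets of a gene were averaged, out of 60 tested there. Median centring moved the median change of all tested probe sets to 0.02, against -0.12 as deposited. It turned the sign of Il6st 1370957_at (0.0085) and 1371926_at (0.0081), neither of which was called. With 1 array left out Il6st 1370957_at ran from -0.27 to 0.012 and Socs2 from -0.76 to 0.0036, both uncalled throughout. Socs3 was under the filter at the 60th percentile and so was not tested there, and Il6st 1383489_at passed without unstressed 1 (-0.56, adjusted p = 0.0333 in limma).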
